A study of Mus musculus with 9 samples.

Results

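The mesendoderm and primitive endoderm markers are 10 genes used to mark these lineages when embryonic stem (ES) cells leave the pluripotent state. They were chosen by symbol: T (Brachyury), Eomes, Mixl1, Evx1, Kdr and Cer1 for mesendoderm, and Gata4, Gata6, Dab2 and Fst for primitive endoderm. Each symbol matched 1 Ensembl identifier, giving 10 of the 52550 rows of the count table. The 9 libraries came from mouse V6.5 ES cells, grown in 15% FBS with LIF and 2i, a pair of inhibitors that block GSK and MEK. Of these, 4 carried the label wild type (WT) and 5 the label of a KLF2 and KLF4 double knockout (DKO), and all 9 shared the line, the medium and the treatment. The genotype label was the only stated difference, and the labels give no age, clone, batch or date. The labels do not say that replicates came from separate cultures, so p-values measure the spread between these libraries, which may be technical.

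Mesendoderm is the common precursor of mesoderm and definitive endoderm that forms in the primitive streak of the gastrulating embryo. Nodal, BMP and Wnt signals act there on T-box and homeobox transcription factors. Primitive endoderm is the layer that separates from the epiblast inside the blastocyst, under FGF and ERK signalling and the GATA factors, and goes on to form the yolk sac endoderm. MEK inhibition in 2i medium blocks the ERK signal, and cultures of this kind are known for low levels of lineage genes.

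Libraries were made from the 3' ends of polyadenylated RNA (QuantSeq FWD, 600 ng of total RNA), and their totals ran from 6035642 to 7098530 counts. Between 17841 and 18449 genes had at least 1 count in a library. Klf2 had 3042 to 3297 counts in WT and 3750 to 4044 in the DKO-labelled libraries, and Klf4 had 5085 to 6183 and 9385 to 10778. These counts go against the label, but reads at a 3' end outside the deleted part, which the labels do not give, check nothing. Every direction below is therefore that of the DKO-labelled libraries against WT. On the first principal component (69.2% of the variance) the groups separated. The second (6.1%) set DKO 3 (23.1) apart from DKO 4 and 5 (-13.5 and -14.0), so results were also computed without these libraries. Of the genes that mark ES cells, Nanog stood at 322 CPM (counts scaled to a common library size) in WT and 375 in the DKO-labelled libraries, and Sox2 at 298 and 490. Pou5f1, which encodes OCT4, had only 23.8 and 21.4 CPM. It has pseudogene copies, and the handling of multi-mapped reads is not given, so its count is uncertain. Whether this lowered the count was not tested.

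Most of the markers were scarce, and 5 of the 6 that could be tested were lower in the DKO-labelled libraries. Dab2, an endocytic adaptor, was 8.13 times as abundant in WT, Evx1, a homeobox factor, 6.15 times, Eomes, a T-box factor, 4.74 times, Kdr, a VEGF receptor, 4.09 times and Mixl1, a homeobox factor, 3.12 times. Fst, the secreted activin antagonist follistatin, went the other way and was 1.64 times as abundant in the DKO-labelled libraries. The other 4 markers, T, Cer1, Gata4 and Gata6, had too few reads to be tested. These ratios are of summed counts over summed library sizes, scaled by TMM (edgeR's correction for library composition). Taken as DKO over WT, exact 95% intervals were 0.0649 to 0.216 for Dab2, 0.0737 to 0.323 for Evx1 and 0.169 to 0.261 for Eomes. These cover counting error only and overlap, so the order of these genes is not resolved.

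Genes were tested across the whole table with edgeR's quasi-likelihood test, and an adjusted p (Benjamini-Hochberg over 11893 genes) under 0.05 counts as passing. By that rule 47.8% of all genes tested passed, 23.9% as higher and 24.0% as lower, so a passing marker by itself is common here. Groups did not overlap in CPM for 37.4% of genes tested (18.4% higher, 19.1% lower), and for the same 6 markers. Falls of at least 2-fold that passed, which 5 markers showed, made up 6.05% of genes tested. The median log2 fold change of all genes was 0.01. Mixl1, Evx1, Kdr and Dab2 entered the test only through WT: the filter needed about 1.52 CPM in 4 libraries, which all 4 WT libraries reached and none of those labelled DKO did. A gene admitted in this way had to be lower in the other group, so the count of 5 is a description and not evidence about the markers as a class. In bulk RNA, fewer cells of a type and less RNA per cell cannot be told apart.

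**Figure D1:**
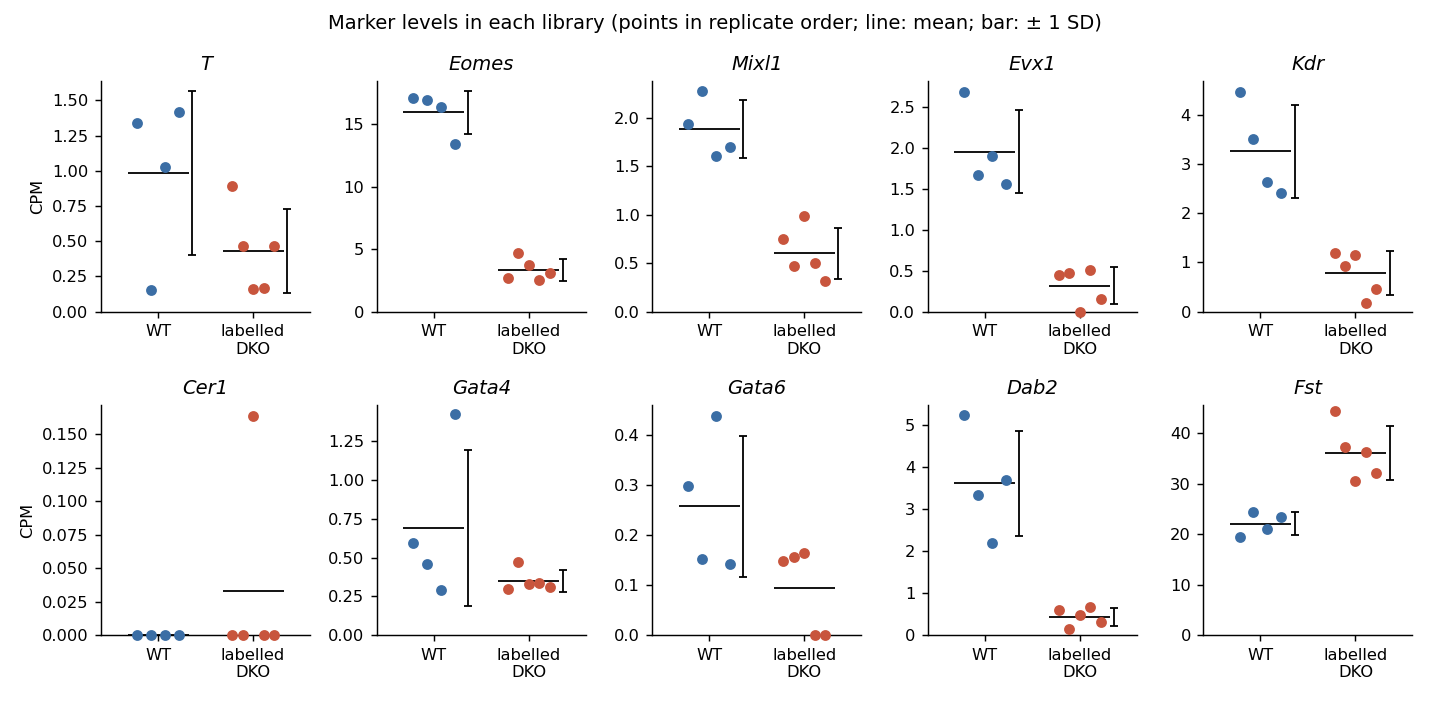
CPM of each of the 10 markers (vertical axes, each starting at 0 and scaled per gene) in the 4 WT and 5 labelled DKO libraries, with the mean as a line and ± 1 SD as a bar where a group holds more than 3 counts. Points do not overlap between groups for Eomes, Mixl1, Evx1, Kdr, Dab2 and Fst, and Cer1 has a count in DKO 3 alone.

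The promoters of the fallen markers are shown because Klf2 and Klf4 encode factors that bind CACCC and GC-rich elements, and so that their sequence can be read beside their values. RefSeq's table (GRCm38.p6) held a start for 6 of the 10 markers (T, Eomes, Evx1, Kdr, Cer1 and, with 2 starts, Dab2). Mixl1, Gata4, Gata6 and Fst had no entry. Each line gives the 250 bases before the start, 5′ to 3′ on the gene's strand. Capitals mark GGGTG or GGGCG on either strand (CACCC or CGCCC when read from the other strand).
Eomes, chr9:118477939-118478188, plus strand: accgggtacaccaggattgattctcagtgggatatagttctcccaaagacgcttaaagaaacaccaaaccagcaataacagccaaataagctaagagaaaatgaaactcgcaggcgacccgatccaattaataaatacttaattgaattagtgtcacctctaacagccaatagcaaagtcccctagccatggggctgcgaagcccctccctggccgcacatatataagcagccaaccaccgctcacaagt
Evx1, chr6:52313248-52313497, plus strand: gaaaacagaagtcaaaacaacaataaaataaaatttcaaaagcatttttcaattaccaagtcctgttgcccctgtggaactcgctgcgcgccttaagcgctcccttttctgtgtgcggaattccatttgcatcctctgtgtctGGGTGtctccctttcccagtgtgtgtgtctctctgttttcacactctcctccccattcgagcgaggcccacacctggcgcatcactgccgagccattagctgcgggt
Kdr, chr5:75978456-75978705, minus strand: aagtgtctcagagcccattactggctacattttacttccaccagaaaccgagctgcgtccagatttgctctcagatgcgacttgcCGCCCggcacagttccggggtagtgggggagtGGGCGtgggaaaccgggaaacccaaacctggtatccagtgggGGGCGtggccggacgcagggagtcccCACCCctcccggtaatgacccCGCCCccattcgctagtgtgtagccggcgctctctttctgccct
Dab2 upstream start, chr15:6299539-6299788, plus strand: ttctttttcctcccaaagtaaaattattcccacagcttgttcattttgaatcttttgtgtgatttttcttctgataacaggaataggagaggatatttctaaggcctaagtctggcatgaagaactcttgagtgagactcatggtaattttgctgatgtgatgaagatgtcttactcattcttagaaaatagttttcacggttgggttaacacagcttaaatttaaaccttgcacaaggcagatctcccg
Dab2 downstream start, chr15:6386498-6386747, plus strand: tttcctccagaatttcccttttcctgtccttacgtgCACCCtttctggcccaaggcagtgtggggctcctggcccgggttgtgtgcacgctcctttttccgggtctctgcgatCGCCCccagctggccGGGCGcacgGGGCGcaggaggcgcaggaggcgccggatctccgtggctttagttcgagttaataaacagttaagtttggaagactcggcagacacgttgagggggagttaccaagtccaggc
The markers that fell did not share these letters. Kdr held 1 GGGTG and 4 GGGCG, the downstream Dab2 start 1 and 3, Evx1 1 and 0, and neither Eomes nor the upstream Dab2 start held any. T, which could not be tested, held 2 and 2, and Cer1 held none. Among all 32851 promoters of that table, 52.0% held GGGTG and 43.7% held GGGCG in the same window, so a match is common. The GATA letters GATAA, found in 22.6% of promoters, occurred at the upstream Dab2 start alone among these 7 windows, and the T-box letters GGTGTG, in 16.3%, at Evx1 alone. The SMAD letters CAGAC (42.2%) occurred in Cer1, Evx1 and both Dab2 windows, and the FOXH1 letters AATCCAC (2.10%) in none. GGTGTG and GGGTG can overlap. Base composition differed widely, from 36.8% G and C at the upstream Dab2 start to 62.8% at T (61.6% at Kdr), with a median of 52.4% over the table. A 3' end library does not tell which Dab2 start was used.

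Eomes, a T-box factor needed for mesoderm delamination and definitive endoderm, is on chromosome 9 (118478212 to 118486132, plus strand) and was the most abundant of the transcription factors. WT 1 to 4 held 115, 111, 112 and 95 of its reads, and DKO 1 to 5 held 18, 30, 23, 15 and 20. The lowest WT library (13.4 CPM) stood far above the highest DKO-labelled one (4.69 CPM). The level was 16.0 ± 1.71 CPM in WT (SD, n = 4) and 3.36 ± 0.885 in the DKO-labelled libraries (SD, n = 5). The difference was -2.24 on the log2 scale (SE 0.18, adjusted p = 8.59e-13 by edgeR). Of all genes tested, 168 had a more negative log2 difference. Eomes also passed the filter through both groups, so its test did not depend on how it was admitted.

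T, the founding T-box gene and the classical marker of the primitive streak, lies on chromosome 17 (8434423 to 8442496, plus strand). Reads numbered 9, 1, 7 and 10 in WT against 6, 3, 1, 1 and 3 in the DKO-labelled libraries, so the groups overlapped, with WT 2 as low as any library. Its sums of 27 and 14 counts gave a ratio of DKO over WT of 0.447 (exact 95% interval 0.216 to 0.882, counting error only). A fit without the filter on low counts gave -1.13 on the log2 scale (SE 0.58, adjusted p = 0.155 by edgeR). Without WT 2 that adjusted p was 0.0539. A fall of T was thus not detectable at this depth once the spread between libraries was counted.

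Mixl1 and Evx1 are homeobox genes of the streak, and both stood near 2 CPM in WT. Mixl1 is on chromosome 1 (180693043 to 180697034, minus strand). Its counts were 13, 15, 11 and 12 in WT against 5, 3, 6, 3 and 2 in the DKO-labelled libraries. It went from 1.88 ± 0.299 to 0.603 ± 0.262 CPM, with a difference of -1.61 on the log2 scale (SE 0.41, adjusted p = 0.00126 by edgeR). Evx1 is on chromosome 6 beside the Hoxa cluster (52313498 to 52318378, plus strand). Its counts were 18, 11, 13 and 11 in WT against 3, 3, 0, 3 and 1 in the DKO-labelled libraries. It went from 1.95 ± 0.508 to 0.315 ± 0.224 CPM, with a difference of -2.55 on the log2 scale (SE 0.49, adjusted p = 4.46e-05 by edgeR). Neither gene's groups overlapped. In the DKO-labelled libraries all values of Evx1 were at or under 3 counts, the floor used here, which corresponds to 0.425 to 0.505 CPM in a library. Their fold changes therefore carry wider errors than that of Eomes.

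Kdr encodes VEGFR2, the receptor that marks mesoderm on its way to blood and endothelium, and is on chromosome 5 (75932827 to 75978458, minus strand). Reads numbered 30, 23, 18 and 17 in WT against 8, 6, 7, 1 and 3 in the DKO-labelled libraries. DKO 4 and DKO 5 were the lowest, and no DKO-labelled library reached the lowest WT library. The level went from 3.25 ± 0.939 to 0.783 ± 0.447 CPM, with a difference of -2.01 on the log2 scale (SE 0.37, adjusted p = 2.74e-05 by edgeR). Without DKO 4 and DKO 5 it was -1.55 (edgeR adjusted p = 0.00102).

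Cer1 encodes Cerberus-like, a secreted antagonist of Nodal, BMP and Wnt made by anterior endoderm, and is on chromosome 4 (82881751 to 82885148, minus strand). Its only read in 9 libraries was 1 count in DKO 3. The 0 counts over the 4 WT libraries allow a level of up to 0.110 CPM (3 counts over the group). No fold can be given for a gene with both groups under that floor.

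Dab2 encodes an adaptor that links cargo receptors to clathrin and is a standard marker of primitive endoderm. It lies on chromosome 15 (6299788 to 6440712, plus strand). Its counts were 35, 22, 15 and 26 in WT against 4, 1, 3, 4 and 2 in the DKO-labelled libraries. The lowest WT library (2.20 CPM) stood well above the highest DKO-labelled one (0.673 CPM). The level went from 3.61 ± 1.25 to 0.446 ± 0.211 CPM, with a difference of -2.97 on the log2 scale (SE 0.40, adjusted p = 1.13e-07 by edgeR). Of all genes tested, 67 had a more negative one. Dab2 entered the test through WT alone, so its direction and this rank are a description. Its counts in DKO 2, DKO 3 and DKO 5 were at or under the floor of 3 counts. Among WT libraries the variance over the mean of depth-scaled counts was 2.93 for Dab2 and 1.84 for Kdr, where counting error alone gives about 1. Over 4 libraries this ratio is itself loosely determined, so a larger spread of Dab2 was not resolved.

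Fst, on chromosome 13 (114452290 to 114458951, minus strand), was the only marker that was higher in the DKO-labelled libraries. Its counts were 130, 161, 144 and 166 in WT against 298, 239, 187, 215 and 206 in DKO 1 to 5, with no overlap. The level went from 22.1 ± 2.31 to 36.2 ± 5.38 CPM, with a difference of 0.71 on the log2 scale (SE 0.11, adjusted p = 9.79e-07 by edgeR). A larger positive difference was measured for 930 of the genes tested. The DKO-labelled libraries differed among themselves more than counting allows, with a variance over the mean of 5.06 against 1.64 in WT, and DKO 1 was the highest. Fst supplied 43.6% of all marker counts in WT and 84.9% in the DKO-labelled libraries.

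Gata4 and Gata6, zinc finger factors that specify primitive endoderm, were near the floor in both groups. Gata4 is on chromosome 14 (63198922 to 63271692, minus strand). Reads numbered 4, 3, 2 and 10 in WT against 2, 3, 2, 2 and 2 in the DKO-labelled libraries. WT 4 held 10 of the 19 WT counts, and the other WT libraries overlapped the DKO-labelled libraries. The ratio of DKO over WT was 0.499 (exact 95% interval 0.214 to 1.10), and the fit without a filter gave -0.96 ± 0.67 (edgeR adjusted p = 0.327), or -0.34 without WT 4 (edgeR adjusted p = 0.804). Gata6 is on chromosome 18 (11052064 to 11085635, plus strand). Reads numbered 2, 1, 3 and 1 in WT against 1, 1, 1, 0 and 0 in the DKO-labelled libraries. Its ratio was 0.369 (0.0616 to 1.62), and neither gene showed a difference that this depth could detect.

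**Figure D2:**
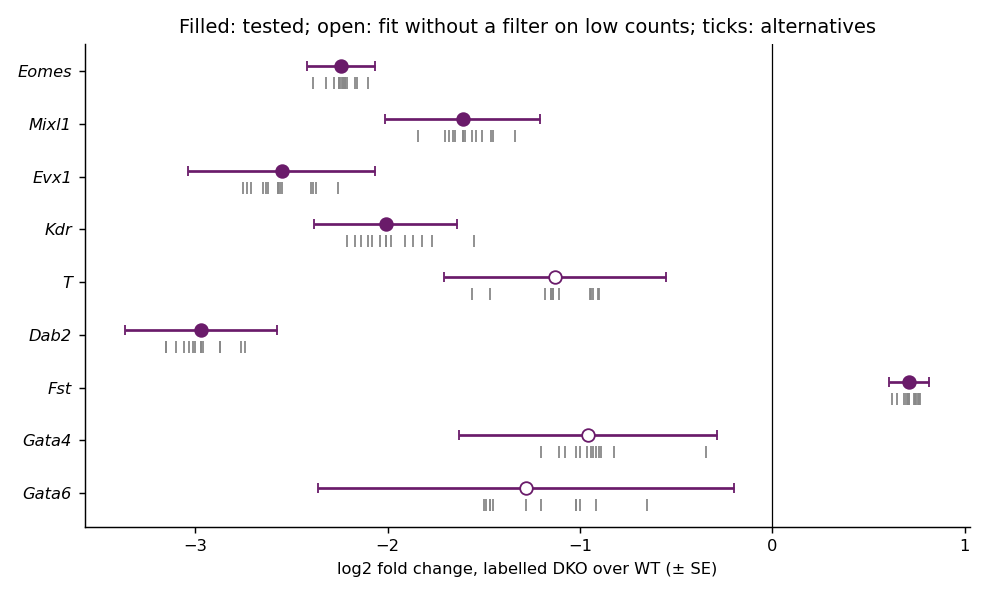
Log2 fold change of the DKO-labelled libraries over WT (horizontal axis, ± SE) for 9 markers. Filled points were tested in the filtered fit, open points come from the fit without a filter on low counts, and grey ticks are the alternatives. Dab2 lies farthest left at -2.97, Fst alone lies right of 0, and the ticks of every gene stay on the side of 0 of its point.

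The order of levels, on the CPM scale of a 3' end kit in which transcript length plays little part, was as follows. In WT it ran Fst (22.1), Eomes (16.0), Dab2 (3.61), Kdr (3.25), Evx1 (1.95), Mixl1 (1.88), T (0.984), Gata4 (0.690), Gata6 (0.258) and Cer1 (listed at 0). Fst and Eomes did not overlap in WT, at 19.4 to 24.5 and 13.4 to 17.1 CPM. Dab2 and Kdr did not differ beyond their spread, at 2.20 to 5.22 and 2.41 to 4.47 CPM, nor did Evx1 and Mixl1, at 1.56 to 2.68 and 1.61 to 2.28. In the DKO-labelled libraries only Fst (30.6 to 44.4 CPM) and Eomes (2.52 to 4.69) stood clear of the rest, and the ranges of Kdr, Mixl1, Dab2, T, Gata4 and Evx1 overlapped between 0 and 1.19 CPM. In WT, 6022 genes of the table had a higher mean than Fst, 6842 than Eomes and 13343 than Gata4.

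The summed level of the 6 mesendoderm markers was 20.5 to 27.6 CPM in the WT libraries and 3.87 to 7.03 in those labelled DKO. That of the 4 primitive endoderm markers was 24.0 to 28.7 and 31.6 to 45.5 CPM. The sums did not overlap between groups in either set, and they moved in opposite directions. Eomes makes up most of the first sum in every library except DKO 1 (2.68 of 5.96 CPM), and Fst most of the second in all 9, so each sum largely repeats 1 gene. Without Fst, the markers took 776 counts over the 4 WT libraries and 203 over the 5 labelled DKO.

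**Figure D3:**
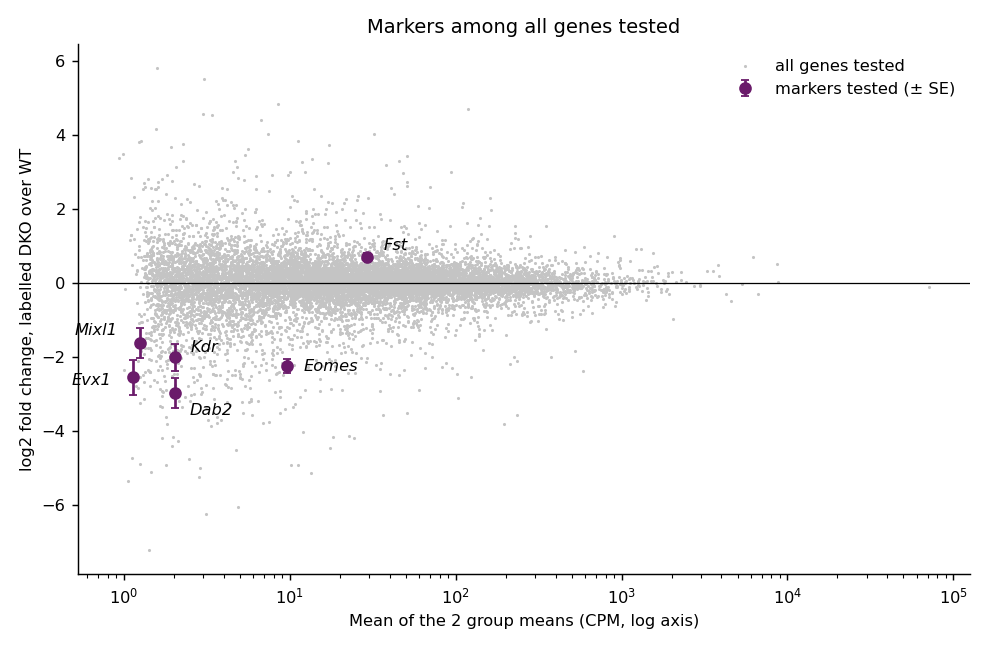
Log2 fold change (vertical axis) against mean level (horizontal log axis, CPM) of the 11893 genes tested, in grey, with the 6 tested markers in purple (± SE). Dab2, Evx1, Kdr and Mixl1 lie at the low end of the level axis, Eomes at a fold change of -2.24 lies near 10 CPM, and Fst lies above 0.

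Relatives and partners of the markers were described from lists of other genes. Single genes are named by a fixed rule, except that directions with 5 genes or fewer are spelled out, a choice made once the values were known. Some listed genes had a mean under the filter's 1.52 CPM in 1 group and passed it mainly through the other. Among them, Tbx21, Tbx18, Spry4 and Dand5 did so through WT. Sox7, Wnt3, Fgfr2 and Plat did so through the DKO-labelled libraries. The direction of such genes, and their part in the counts of each list, is a description. Of 26 other mesendoderm genes, 10 were tested, of which 2 were higher and 4 lower (median log2 fold change 0.10, against 0.01 for all genes). Nkx1-2, a homeobox gene of the caudal streak, fell from 17.1 ± 1.84 to 1.59 ± 0.453 CPM (log2 difference -3.42, adjusted p = 2.11e-16 by edgeR), and Bmp4, the ligand that induces mesoderm, from 5.43 ± 1.04 to 1.16 ± 0.758 CPM. Lefty2 (-1.54), a Nodal antagonist, and the homeobox gene Hhex (-0.53) were the other falls, as log2 fold changes. Wnt3, which starts streak formation, rose from 0.440 ± 0.110 to 2.69 ± 1.27 CPM, and Sp5 (log2 fold change 0.54), a Wnt target, rose too. Nodal (-0.07) and Lefty1 (0.35) did not pass.

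Of 22 other primitive endoderm genes, 10 were tested, of which 5 were higher and 2 lower (median 0.46). The rises were the laminin chains Lamb1 (23.7 ± 1.91 to 42.2 ± 3.06 CPM) and Lama1, the apolipoprotein Apoe (321 ± 12.3 to 592 ± 64.4 CPM), the SOX factor Sox7 (0.148 to 2.98 CPM) and Plat, which encodes tissue plasminogen activator. Plat lies on the part of chromosome 8 before Klf2, where the median log2 fold change of 304 genes tested was 0.42. Lrp2, which encodes megalin, a receptor that DAB2 serves, fell from 20.6 ± 2.40 to 2.46 ± 0.860 CPM (log2 difference -3.07, adjusted p = 1.21e-15 by edgeR), beside the fall of Dab2. Sparc (-0.31) was the other fall. Lamc1 (0.01) and Col4a1 (-0.08), basement membrane chains, did not pass. Col4a1 also lies on chromosome 8 before Klf2. Foxa2, Hnf4a, Sox17 and Pdgfra, further factors and a receptor of this lineage, stayed under 1.1 CPM in both groups and were not tested.

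Fst and Cer1 act on Nodal and activin signalling. Of 25 genes of that pathway, 18 were tested, of which 7 were higher and 3 lower (median 0.21). Among ligands, Nodal did not pass, and Gdf3, named outside the rule, rose from 175 ± 8.95 to 222 ± 11.1 CPM (log2 fold change 0.35). The Nodal co-receptor Tdgf1 fell from 296 ± 4.39 to 167 ± 12.6 CPM (log2 fold change -0.82). Of the genes downstream, the inhibitor Smad7 rose from 87.3 ± 7.93 to 182 ± 3.85 CPM. Pcsk6, a convertase that cleaves the Nodal precursor, rose from 111 ± 3.84 to 164 ± 10.7 CPM. Lefty2 and Fstl1, a follistatin-like protein (-0.58), were the other falls, and Smad4 (-0.11) did not pass. Inhba, which encodes the subunit of activin A that follistatin binds, had 0 counts in all 9 libraries. Inhbb, another activin subunit gene of the list, was present at 2.26 ± 0.731 CPM in WT and 1.69 ± 0.944 in the DKO-labelled libraries. It did not pass (-0.42). Of 6 other antagonists of the DAN family, to which Cer1 belongs, Dand5 alone was tested and fell (-1.53). It lies on chromosome 8 after Klf2, where the median of 359 genes tested was -0.60.

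Of 14 BMP pathway genes, 13 were tested, of which 0 were higher and 6 lower (median -0.45). The targets Id1 (67.0 ± 3.43 to 5.62 ± 0.853 CPM), Id3 (127 ± 6.21 to 45.8 ± 9.90 CPM) and Msx2 (5.66 ± 0.713 to 1.31 ± 0.451 CPM) fell, while Id2 (0.15) and the receptor Bmpr1a (-0.02) did not pass, as log2 fold changes. Smad1 (-0.45), another of the falls, lies on chromosome 8 after Klf2, where the median of genes tested was -0.60. In the canonical Wnt pathway 12 of 18 genes were tested, of which 8 were higher and 1, Tcf7 (-0.26), lower (median 0.36). Fzd7, a receptor, rose from 7.50 ± 0.856 to 36.3 ± 5.30 CPM and Axin2, a feedback target, from 50.4 ± 3.30 to 79.7 ± 13.4 CPM. The Wnt effectors Tcf7l1 (0.09) and Tcf7l2 (-0.20) did not pass.

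FGF and ERK signalling lies above Gata6 in the embryo. Of 18 genes 15 were tested, of which 4 were higher and 4 lower (median 0.11). The receptor Fgfr2 rose from 0.852 ± 0.630 to 8.43 ± 2.83 CPM and Fgfr1, on chromosome 8 before Klf2, from 76.2 ± 2.92 to 177 ± 16.3 CPM, with smaller rises of Shc1 (0.26) and Etv5 (0.27). The feedback inhibitor Spry4 fell from 6.30 ± 2.20 to 0.416 ± 0.357 CPM, and Etv4 (-2.49), Spry2 (-0.43) and the ligand Fgf4 (-0.22) also fell. The kinases Map2k2 (0.16) and Mapk3 (-0.08) did not pass.

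Partners of Dab2 and Kdr went both ways. Of 18 clathrin adaptors and cargo receptors 16 were tested, of which 4 were higher and 8 lower (median -0.08). Lrp2 fell, and Cltc, the clathrin heavy chain (0.37), Itsn1 (0.65), a scaffold of coated pits, Myo6 (0.45) and Ap2b1 (0.22) rose. The adaptor subunits Ap2m1 (0.19) and Ap2s1 (-0.02) did not pass. In the VEGF and haemato-endothelial list 6 of 14 genes were tested, of which 1, Vegfb (0.28), was higher and 5 lower (median -0.46). Nrp2, a VEGF co-receptor, fell from 25.4 ± 2.12 to 10.1 ± 0.484 CPM, and Vegfa (-0.61), Vegfc (-0.34), Etv2 (-0.58) and Pecam1 (-0.33) fell by less. Vegfc lies on chromosome 8 before Klf2.

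Relatives by sequence family had few reads for the most part. Of 15 other T-box genes 5 were tested. Tbx21 fell from 4.79 ± 1.20 to 0.154 ± 0.219 CPM (log2 difference -4.76, adjusted p = 2.69e-10 by edgeR) and Tbx18 from 2.14 ± 0.574 to 0.282 ± 0.256 CPM. Both passed the filter through WT alone, so these falls are descriptions. Tbx3, a T-box factor of naive ES cells, rose from 312 ± 20.7 to 368 ± 32.3 CPM, and Mga (0.03) and Tbx20 (0.46) did not pass (median 0.03). Of 6 GATA factors and cofactors 3 were tested, of which 0 were higher and 2 lower (median -0.68): Gata2 (6.38 ± 0.928 to 3.98 ± 0.896 CPM) and Gata3 (7.25 ± 1.61 to 3.88 ± 1.01 CPM). The cofactor Zfpm1 (-0.04) did not pass.

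**Figure D4:**
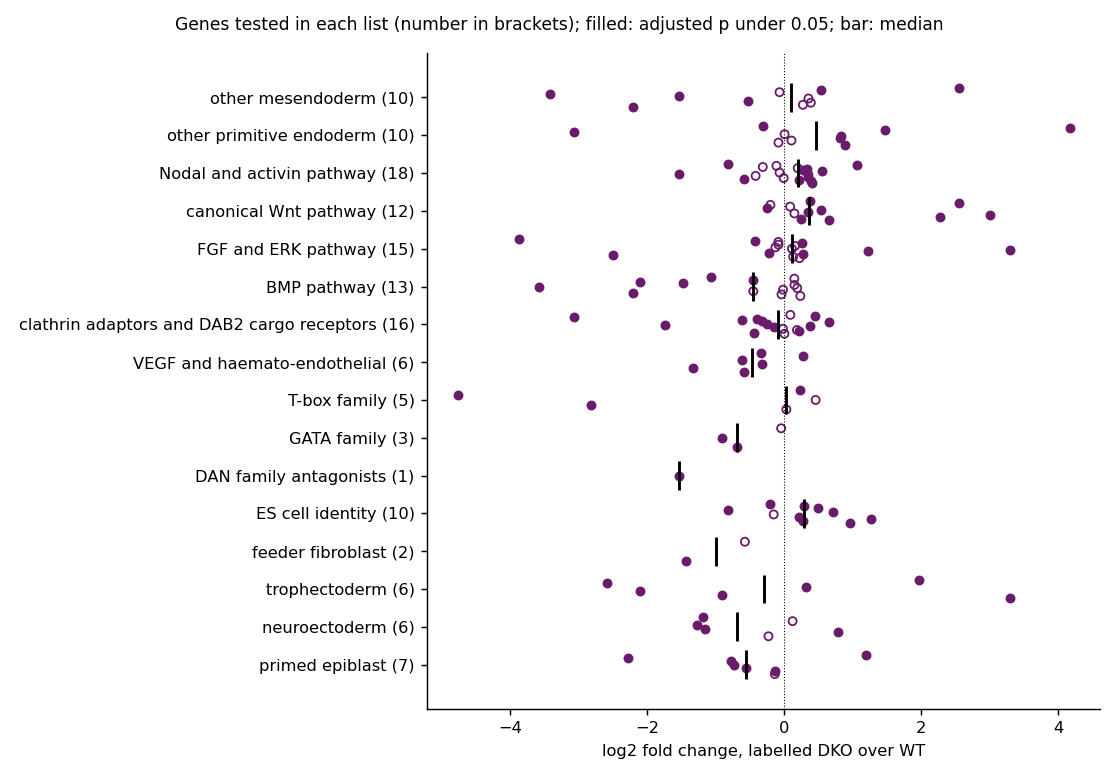
Log2 fold change (horizontal axis) of each gene tested in the 16 lists, with passing genes filled, the others open and the list's median as a bar. The BMP, GATA, DAN and feeder fibroblast lists hold no filled point right of 0, and the other 12 hold filled points on both sides.

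Markers of other cell types moved with the groups too, and their part in the marker values was not tested. The summed level of 12 feeder fibroblast genes was 14.8 to 19.7 CPM in WT and 5.89 to 10.5 in the DKO-labelled libraries, of 2 genes tested 0 were higher and 1, Col5a1 (-1.43), was lower, and Mmp2 (-0.57) did not pass. Col5a1 made up much of the fibroblast sum, at 9.74 ± 1.20 CPM in WT and 3.62 ± 0.442 in the DKO-labelled libraries. Lum was at 0 in every library and Dcn had 1 count in all. The 10 trophectoderm genes summed to 148 to 154 and 305 to 364 CPM, with 3 of 6 higher (Tfap2c, Fgfr2 and Tead4) and 3 lower (Tfap2a, Msx2 and Gata3). Tfap2c alone went from 66.1 ± 3.08 to 259 ± 31.8 CPM, so the rise of that sum largely repeats 1 gene. The 8 neuroectoderm genes summed to 139 to 161 and 87.7 to 109 CPM, with 1 of 6 higher (Nes) and 3 lower (Olig2, Tubb3 and Neurod1), while Sox1 (0.12) and Map2 (-0.23) did not pass. Tubb3 alone went from 75.0 ± 8.47 to 32.8 ± 6.12 CPM. It lies on chromosome 8 after Klf2, where the median log2 fold change was -0.60. Sox1 lies before Klf2, where that median was 0.42. The 8 primed epiblast genes summed to 343 to 363 and 288 to 307 CPM, with 1 of 7 higher (Zic2) and 5 lower (Sox4, Foxd3, Otx2, Pou3f1 and Dnmt3b), while Dnmt3a (log2 fold change -0.14) did not pass. The 10 ES identity genes summed to 3000 to 3110 and 4030 to 4290 CPM, with 7 of 10 higher and 2, Tdgf1 and Zfp42, lower. Zfp42 lies on chromosome 8 before Klf2. Dppa5a, a marker of naive ES cells, rose from 403 ± 32.9 to 787 ± 67.9 CPM. Median log2 fold changes were -0.999 for the fibroblast list, -0.29 for trophectoderm, -0.69 for neuroectoderm, -0.55 for primed epiblast and 0.28 for ES identity.

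The tested genes within 2 Mb on either side of each marker's start gave its genomic surroundings. Around Dab2, 11 genes were tested, of which 7 were higher and 1 lower (median log2 fold change 0.26), so the fall of Dab2 stood against its neighbours. The cytokine receptor gene Lifr, 790.8 kb downstream, rose (0.38). Around Evx1, 13 genes were tested, of which 0 were higher and 7 lower (median -0.19), with Hoxa7 at -1.41 and the noncoding RNA Halr1 at -1.35, at -91.6 and -210.5 kb from its start. Around Eomes, 5 of 21 were higher and 6 lower (median -0.02). Its nearest tested gene, Golga4, lay 28.1 kb away at 0.25, while Itga9, an integrin chain 128.5 kb downstream, fell by 1.71 on the log2 scale. Around Kdr, 4 of 20 were higher and 7 lower (median -0.08), around Mixl1, 6 of 30 and 10 (median -0.10), and around Fst, 3 of 15 and 6 (median -0.12). Medians of the whole chromosomes that carry the 6 tested markers lay between -0.01 and 0.08. These neighbours were picked after their values were seen, apart from the nearest gene.

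**Figure D5:**
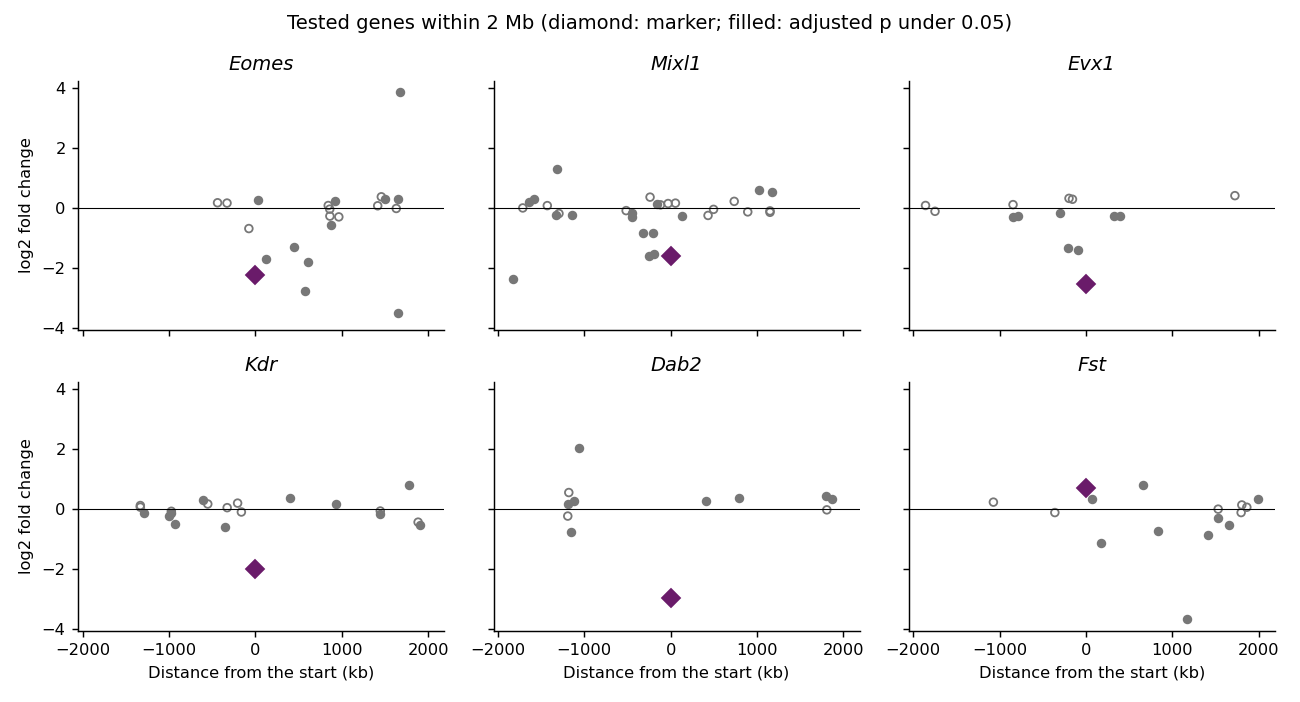
Log2 fold change (vertical axis) of genes tested within 2 Mb, by distance from the marker's start in the direction of transcription (horizontal axis, kb), for the 6 tested markers, shown as diamonds at distance 0. Filled points passed. Every diamond but that of Fst lies below 0, and Dab2 lies below all of its neighbours.

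Few reads were assigned to antisense partners. Eomes, Evx1, Gata6, Dab2 and Fst each overlap 1 gene on the opposite strand, and these had 1 count (Gm33460, at Eomes), 7 (Evx1os), 0 (1010001N08Rik, at Gata6), 0 (Gm16311, at Dab2) and 3 (Gm47040, at Fst) over all 9 libraries. The strand setting of the counting is not given in the sources used here. Opposite-strand reads counted to a marker, or dropped where exons overlap, could therefore not be assessed.

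Likeness of pattern could be described for Eomes and Fst, the markers with at least 5 CPM in a group. Over the 9 libraries, the log2 CPM of Eomes followed most closely that of Jdp2, Elavl2 and Heatr3 (Pearson r = 0.994 for each), and 426 genes reached an r of 0.95, since the difference between groups dominates. Fst was closest to Snx25 (0.991), Lims1 (0.990) and Tmbim1 (0.985). After the group means were removed, the closest to Eomes were Plscr1 (0.966), Sdf2 (0.958) and Zfp423 (0.943), and the closest to Fst were Lsm5 (0.966), Lims1 (0.964) and Tex14 (0.957). These are the highest correlations among all genes tested, over 9 libraries that share depth and preparation, and they are descriptions only.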

How the data were processed

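The deposited values are whole-number exon read counts per Ensembl gene, not normalized, for 9 libraries. The submitters' processing notes name mm10 as the build, and cutadapt, STAR, featureCounts and DESeq2 as tools. For versions, annotation release, strand setting and multi-mapped reads, details were not given in the sources used here. Of 52550 identifiers, 52403 matched GENCODE mouse release M21 on the same build, which gave symbols and positions. Promoters came from RefSeq, GRCm38.p6.

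Genes were kept with filterByExpr, scaled by TMM and tested with the robust quasi-likelihood test of edgeR 4.0.16 (R 4.3.3), with genotype as the sole term and Benjamini-Hochberg adjustment over 11893 genes. CPM values are on TMM-scaled library sizes. SEs were derived from each fold change with its F value. The script was tested on simulated data. The 16 pairs of replicates differed by a chi-square per degree of freedom of 2.31 to 5.40, so none looked like 1 library deposited again. Intervals and the floor of 3 counts cover counting error only.

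The markers and lists were chosen with earlier results of these data known. Some genes planned for the lists are not reported here and were left out of the lists' counts and medians. Markers were always named. Of each list, the 3 passing genes of smallest adjusted p were named, and the 2 most abundant that did not pass. Alternatives were DESeq2 1.42.0, RLE factors, no filter, a filter of 5 CPM in 4 libraries, a replicate block and leaving out libraries.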

Additional observations from a re-analysis of the deposited data

Results flagged for a closer look

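Of 17 sets of replicates with more than 3 counts among the 10 markers, 1 held a library far from the others. Gata4 stood at 0.469 CPM in DKO 2, from 3 counts against 2 in each of the other 4 DKO-labelled libraries, which is a difference of 1 read. Chance sets apart about 1 in 20 sets of continuous values, a rate that need not hold for tied counts this small.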

How the results depend on the processing

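The 6 tested markers kept their direction and passed in all alternatives that tested them. Log2 fold changes ranged from -3.15 to -2.74 for Dab2, -2.75 to -2.26 for Evx1, -2.39 to -2.10 for Eomes, -2.21 to -1.55 for Kdr, -1.84 to -1.34 for Mixl1 and 0.62 to 0.77 for Fst, with edgeR or DESeq2 adjusted p no higher than 0.0163 (Mixl1, without DKO 4 and DKO 5, a setting added with the data in view). When 5 CPM was required in 4 libraries, 1 marker was lower and not 5, because Mixl1, Evx1, Kdr and Dab2 were no longer tested. T, Gata4 and Gata6 kept a negative sign without passing, with adjusted p from 0.0539 to 0.379, 0.239 to 0.804 and 0.398 to 0.738. DESeq2 called 2624 genes higher and 2737 lower. Whether numbers shared by WT and DKO libraries pair them was not settled. Deviations of same-numbered libraries correlated at only 0.01 to 0.07. Among numbers 1 to 4 each library correlated best with its own number, a hint from the data and not the design. The fit with the replicate block called 2746 genes higher and 2784 lower, against 2837 and 2852 without it, and again 1 marker higher and 5 lower. The 4 untested markers are limited by depth, at 41 counts or fewer each in all.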

Other observations

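Some lineage genes too scarce to be tested had uneven counts. They were picked after their values were seen and are given as counts over the 4 WT and the 5 labelled DKO libraries. Gsc, a homeobox gene of the organizer, had 35 and 6 counts, and Sox17, an endoderm factor, 28 and 4. Wnt3a, a ligand of the later streak, had 13 and 2, and Tbx15, a T-box relative, 38 and 7. Thbd, which encodes thrombomodulin and marks parietal endoderm, went the other way with 1 and 23, and Foxa2, a factor of endoderm and node, had 10 and 26. Fgf5, a marker of the primed epiblast, had 0 and 17.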
